A study of Arabidopsis thaliana with 6 samples.

Results

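The Arabidopsis thaliana microRNAs (miRNAs) miR773a, miR8184, miR860, miR781a/b and miR5640 are described here, all lower in the mutant ein2-1 than in the wild type Col-0. They are 5 of the 142 distinct mature sequences in the table and were carried by 8 of its 178 entries, since entries with the same sequence hold identical counts. They were selected on their counts, as sequences known to be lower in ein2-1. miR5640 and miR781a/b were then taken by their entries and the other 3 by the expectation of a predicted target site, in FERROCHELATASE 1 (FC1, AT5G26030) for miR860, in AT4G18660 for miR8184 and in AT1G35660 for miR773a. The difference between the genotypes is therefore a description throughout and carries no test.

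The ein2-1 libraries came from plants mutant in EIN2, which acts after the ethylene receptors and without which plants do not respond to this hormone. Col-0 is the control. In both genotypes, seedlings 14 days old were held under water for 1 hour, and leaf explants then stayed for 7 days on CIM, the medium on which cut tissue forms callus; the upper part of the explants gave the RNA. Each genotype had 3 libraries, which the design text calls biological replicates. No library from plants kept out of water was analysed here, so submergence and CIM are shared by all values. A table of miRNAs holds neither EIN2 mRNA nor marker genes of leaf, so genotype and tissue rest on the labels.

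Plant miRNAs are cut by DICER-LIKE 1 (DCL1) from the stem of a folded precursor RNA and guide an ARGONAUTE protein, mostly AGO1, to mRNAs to which they pair almost completely; the mRNA is then cut or its translation is repressed. AGO1 prefers a mature miRNA that begins with U, and miRNAs of 22 nt are known to set off the making of secondary small interfering RNAs from the mRNAs they cut. Families shared by most flowering plants often regulate transcription factors or hormone receptors. Many others are known only from Arabidopsis and its close relatives, are called young, and are mostly weakly expressed with few established targets. None of the 5 families is in a list of 29 widely conserved families drawn from textbook knowledge; their age itself cannot be read from counts.

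The mature sequences are shown because they identify the miRNAs and can be set beside the target sites given further on. Capitals mark the seed, bases 2 to 8, by which miRNAs are grouped, and the letters are those of the deposited table.
miR773a: uUUGCUUCcagcuuuugucucc
miR8184: uUGGUCUGauuacgaauguau
miR860: uCAAUAGAuuggacuauguau
miR781a/b: uUAGAGUUuucuggauacuua
miR5640: aUGAGAGAaggaauuagauuc
The 5 seeds differed from each other, and 0 other sequences of the table had any of them. miR773a was 22 nt long and the other 4 were 21 nt long. miR5640 began with A and the others with U. Their GC content ran from 28.6% in miR860 and miR781a/b to 45.5% in miR773a, with a median of 33.3%, beside medians of 40.9% over the other 33 sequences outside the conserved list and 52.4% over 37 sequences of conserved families.

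In the TAIR10.1 reference, 4 of the miRNAs came from introns or from sequence between genes. miR773a matched chromosome 1 once, at chr1:13067313-13067334 on the plus strand, in MIR773a (AT1G35501), which lies between AT1G35500, 655 bp before it, and AT1G35510, 3830 bp after it. It was 1 base longer at its 3′ end than the annotated product. miR8184 matched chr5:3311973-3311993 on the minus strand, 1 base away from the annotated product of MIR8184 (AT5G01755). MIR8184 lies between NET2C, 3853 bp away, and AIL6, an AP2-type transcription factor gene of growing tissue, 3331 bp away. miR781a/b matched chr1:7423523-7423543 on the plus strand in MIR781a (AT1G21202) and chr1:7423585-7423605 on the minus strand in MIR781b (AT1G05637). These genes overlap on opposite strands, inside an intron of 635 bp that follows the coding sequence in 1 of 2 transcripts of AT1G21200. Reads of miR781a and miR781b cannot be told apart, as the mature sequence is the same. miR5640 matched chr1:1653540-1653560 on the minus strand in MIR5640 (AT1G04393), shifted by 1 base from the annotated product. MIR5640 lies in an intron of 771 bp of CALS1, a callose synthase gene read in the same direction.

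miR860 differed from these 4, as its gene lies inside a mature mRNA. It matched chr5:9098876-9098896 on the plus strand in MIR860 (AT5G26038, chr5:9098791-9098916), and MIR860 lies in the 3′ untranslated region of FC1, which makes the enzyme that puts iron into haem. FC1 runs from chr5:9096451-9099185 on the same strand, and its coding sequence ends at position 9098752. Both annotated FC1 transcripts carry the mature miR860 letters in an exon.

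The hairpins of MIR8184 and MIR781a are shown because the same mature sequence stands on both strands of each, once in each arm. Capitals mark the mature sequence and its reverse copy, each read 5′ to 3′ on the strand of the gene.
MIR8184: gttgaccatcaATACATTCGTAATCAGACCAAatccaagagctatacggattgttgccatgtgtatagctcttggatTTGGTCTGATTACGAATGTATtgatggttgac
MIR781a: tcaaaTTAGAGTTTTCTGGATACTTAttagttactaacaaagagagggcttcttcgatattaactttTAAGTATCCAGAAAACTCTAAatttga
MIR8184 covers chr5:3311962-3312070 on the minus strand, is 109 bp long and has 45 bases between the copies. MIR781a covers chr1:7423518-7423611 on the plus strand, is 94 bp long and has 41 bases between them. In both, 0 bases of the mature sequence were unpaired in the fold predicted by RNAfold. MIR781b overlaps MIR781a on the other strand and spans both copies, so these genes share a stretch of DNA and are not independent. Counting both, 3 of the 6 MIR genes of these miRNAs held the mature sequence on both strands. The counts were 2 of 36 for genes of other families outside the conserved list, MIR5998a and MIR5998b, and 0 of 69 for genes of conserved families. Table entries that share a sequence were deposited for 3 of the 5 miRNAs, miR8184, miR781a/b and miR5640.

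The predicted folding energy of MIR8184 was -0.744 kcal/mol per base, the lowest of the 111 MIR genes folded. The other values were -0.518 for MIR860, -0.461 for MIR781b, -0.441 for MIR781a, -0.438 for MIR773a and -0.393 kcal/mol per base for MIR5640. Medians were -0.395 over the 36 other genes outside the conserved list and -0.42 kcal/mol per base over the 69 conserved ones, so MIR5640, the longest of the 6 at 404 bp, was near both. A similar stretch elsewhere in the genome (BLAST, E of at most 0.001) was found for 2 of the 6 genes, against 19 of 36 and 63 of 69. One was MIR773a, with 95.3% identity over its 85 bp to MIR773b (AT1G06903, chr1:13050723-13050807) on the opposite strand. The mature miR773a sequence itself matched the genome once. The other was MIR5640, with 83.7% identity over 49 bp and 86.8% over 38 bp to ABCG31 (AT2G29940), a transporter gene on chromosome 2.

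All 5 miRNAs had lower levels in every ein2-1 library than in any Col-0 library, and they fell into 2 sizes of difference. miR8184, miR860 and miR773a were 8.44-, 8.24- and 7.60-fold lower, and miR781a/b and miR5640 were 2.76- and 2.52-fold lower. Non-overlap of this kind was common in the table, with 31.4% of the 118 distinct sequences tested lying lower in ein2-1 without overlap and 32.2% called lower at an adjusted p below 0.05 (edgeR's quasi-likelihood test, adjusted over 153 entries). Since the members were chosen as lower, nothing is read from their own count. Levels are in CPM, the share of a library's listed counts scaled to a common total, after TMM scaling. In such bulk tissue, fewer cells with a miRNA and less of it per cell cannot be told apart.

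miR773a was the most abundant of the 5. It had 204, 311 and 246 counts in ein2-1 replicates 1 to 3, against 1883, 1279 and 1152 counts in Col-0 replicates 1 to 3. As CPM these were 206, 214 and 233 in ein2-1, against 1664, 1769 and 1530 in Col-0. The ein2-1 libraries were close to each other and all far below Col-0. The mean was 218 ± 14.3 CPM in ein2-1 and 1654 ± 120 CPM in Col-0 (SD, n = 3 each), a log2 fold change of -2.93 with an SE of 0.18, or 7.60-fold lower. Its spread between libraries of 1 genotype, a pooled SD of 0.10 on the log2 scale, was the smallest of the 5.

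miR8184 had 33, 84 and 46 counts in ein2-1, against 458, 290 and 261 in Col-0. This gave 33.3, 57.7 and 43.7 CPM in ein2-1, against 405, 401 and 347 CPM in Col-0. Even the highest ein2-1 library lay 6.01-fold below the lowest Col-0 library. The means were 44.9 ± 12.3 CPM in ein2-1 and 384 ± 32.5 CPM in Col-0 (SD, n = 3 each). The log2 fold change was -3.08 with an SE of 0.25.

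miR860 was the rarest, with 3, 7 and 11 counts in ein2-1, against 58, 35 and 39 in Col-0. Counting error alone (exact Poisson, 95%) gives 0.619 to 8.77 for the library with 3 counts, and 24.4 to 48.7 for the Col-0 library with 35. The Col-0 libraries were close to each other at 51.3, 48.4 and 51.8 CPM, whereas the ein2-1 libraries, at 3.02, 4.81 and 10.4 CPM, were spread over more than 3-fold. The means were 6.09 ± 3.87 CPM in ein2-1 and 50.5 ± 1.83 CPM in Col-0 (SD, n = 3 each). The log2 fold change was -3.04 with an SE of 0.36, the widest error of the 5, and it was -3.59 without ein2-1 replicate 3.

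miR781a/b had 57, 120 and 94 counts in ein2-1, against 251, 154 and 150 in Col-0. Levels were 57.4, 82.5 and 89.2 CPM in ein2-1, against 222, 213 and 199 CPM in Col-0. The gap between the highest ein2-1 and the lowest Col-0 library was 2.23-fold. The means were 76.4 ± 16.7 CPM in ein2-1 and 211 ± 11.4 CPM in Col-0 (SD, n = 3 each), with a log2 fold change of -1.46 and an SE of 0.23.

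miR5640 had 119, 251 and 120 counts in ein2-1, against 342, 225 and 315 in Col-0, so raw counts overlapped before scaling to library size. Levels were 120, 172 and 114 CPM in ein2-1, against 302, 311 and 418 CPM in Col-0. Here the genotypes came closest, with a gap of 1.75-fold. Replicate 2 was high among the ein2-1 libraries and replicate 3 among the Col-0 libraries. The means were 135 ± 32.2 CPM in ein2-1 and 344 ± 64.6 CPM in Col-0 (SD, n = 3 each), and the log2 fold change was -1.34 with an SE of 0.24. It was -0.999 without Col-0 replicate 3.

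**Figure D1:**
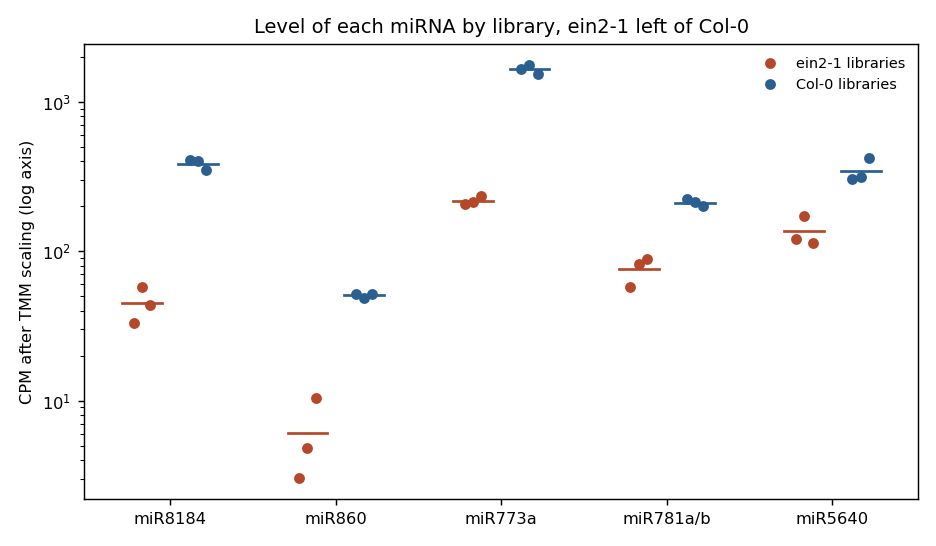
Level of each miRNA in CPM after TMM scaling (log axis), with 1 point per library, ein2-1 left of Col-0, and a line at the mean of each genotype. The genotypes do not overlap for any of the 5, and the gap is widest for miR8184, miR860 and miR773a.

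The size of the differences depended on the scaling. TMM factors were 0.737 to 0.853 in ein2-1 and 1.20 to 1.32 in Col-0, so scaling to library size alone gave larger falls, with log2 fold changes of -3.77 for miR8184, -3.74 for miR860, -3.62 for miR773a, -2.17 for miR781a/b and -2.04 for miR5640. The median of all 118 sequences moved too, to -0.64 under library-size scaling, against 0.06 under TMM. The 5 miRNAs were also summed as a share of each library's counts of distinct sequences, which scales to that total without TMM. The share was 0.0686%, 0.0783% and 0.0699% in ein2-1, against 0.537%, 0.595% and 0.569% in Col-0.

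Ratios between the miRNAs inside a library need no scaling, and they restate the split into 2 sizes of difference. miR773a counts were 3.58, 2.59 and 2.62 times those of miR781a/b in ein2-1, against 7.50, 8.31 and 7.68 times in Col-0. They were 1.71, 1.24 and 2.05 times those of miR5640 in ein2-1, against 5.51, 5.68 and 3.66 times in Col-0. Within each of the 2 sets the ratios overlapped. miR8184 counts were 0.162, 0.270 and 0.187 of those of miR773a in ein2-1, against 0.243, 0.227 and 0.227 in Col-0, and miR781a/b counts were 0.479, 0.478 and 0.783 of those of miR5640 in ein2-1, against 0.734, 0.684 and 0.476 in Col-0. All 6 ratios across the sets were without overlap, and all 4 within them overlapped. These ratios come from the contrast that chose the members and have no test. The 2 sets were drawn from the same fold changes, so the ratios are no separate support for the split. The share of ratios without overlap among all pairs of tested sequences was not computed.

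**Figure D2:**
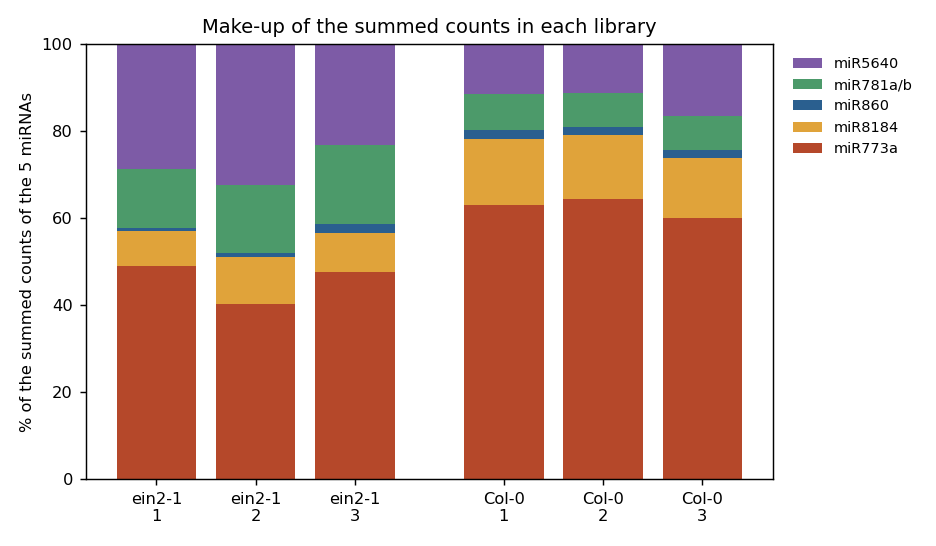
Share of each miRNA in the summed counts of the 5, in percent, for each library. miR773a made up 40.2% to 49.0% in ein2-1 and 60.1% to 64.5% in Col-0, whereas miR5640 and miR781a/b together filled more of the ein2-1 bars.

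The order of levels also changed. In Col-0 it ran from miR773a over miR8184 and miR5640 to miR781a/b and miR860, and miR8184 (347 to 405 CPM) overlapped with miR5640 (302 to 418 CPM). In ein2-1 it was miR773a, miR5640, miR781a/b, miR8184 and miR860; miR781a/b at 57.4 CPM in replicate 1 reached just below miR8184 at 57.7 CPM in replicate 2. Over both genotypes, miR773a ranked 20th by mean CPM of the 118 sequences, miR5640 29th, miR8184 33rd, miR781a/b 38th and miR860 73rd.

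Other sequences fell as far as these. Counted from the lowest log2 fold change of the 118 under TMM scaling, miR8184 was 6th, miR860 7th and miR773a 8th, and miR781a/b and miR5640 were 23rd and 27th. Sequences of conserved families ranged from -4.09 to 3.49. Of the other 32 tested sequences outside the conserved list, 13 were called lower, 7 higher and 12 did not pass, with a median log2 fold change of -0.13; of 35 conserved ones, 12 were lower, 15 higher and 8 did not pass, with a median of 0.35. Over all 118 sequences, 38 were lower, 41 higher and 39 did not pass. In a fit with 1 entry per distinct sequence, 38 were lower and 25 higher. Under library-size scaling the medians were -0.83 for the other sequences outside the conserved list and -0.35 for the conserved ones. The difference between the classes was not tested. Among the others outside the conserved list, miR779.2 at -3.23 ± 0.22, miR848 at -2.92 ± 0.34 and miR5028 at -2.90 ± 0.27 (log2 fold change ± SE) were called lower by a similar amount. miR5998a/b, whose genes also carry the mature sequence on both strands, was called higher, at 2.37 ± 0.35.

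**Figure D3:**
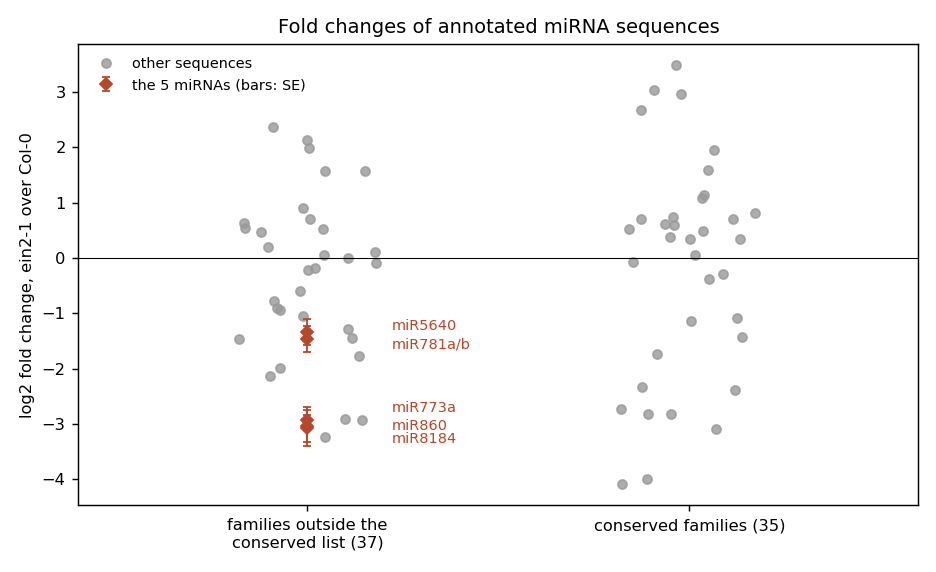
Log2 fold change (ein2-1 over Col-0) for each tested sequence of an annotated family (points, spread sideways for visibility), with the 5 miRNAs as diamonds with SE. The diamonds form 2 groups, near -3 and near -1.4, and grey points lie beside both.

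The sequences most alike in profile were found from log2 CPM over the 6 libraries, each centred on its own mean, by the root mean square difference. miR8184 and miR773a were each other's nearest among the 117 other sequences, at 0.23, where the median over all others was 1.61 for miR8184 and 1.51 for miR773a. miR848 at 0.25 came next for miR8184, and miR5028 at 0.27 and miR779.2 at 0.28 came next for miR773a. The nearest to miR860 were sequences of conserved families, the 2 miR169 sequences shared by miR169h to miR169n and by MIR169i, j, k and m, at 0.17 and 0.21, and miR319a/b at 0.30. Of these 2 miR169 sequences, the first comes from the 5′ arm of its hairpins and the second from the 3′ arm. The miR169 family is known to target NF-YA transcription factors, which need not hold for sequences of both arms. The miR319 family targets TCP transcription factors. For miR781a/b they were miR839-5p at 0.18, miR168a/b-5p at 0.22 and miR840-5p at 0.23. For miR5640 they were miR168a/b-5p and miR167a-3p, both at 0.27, and miR4228-3p at 0.27. miR168 is the miRNA that targets AGO1 mRNA. It had 3931 ± 237 CPM in ein2-1 and 8690 ± 419 CPM in Col-0 (SD, n = 3 each). With 3 libraries per genotype, likeness of this kind mostly reflects the difference between the genotypes.

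The deposited target sheet lists sites predicted by psRNATarget, which gives each an expectation, a penalty score that is 0 for full pairing and went up to 5 here. The mRNAs were not measured, so these are predictions with no readout. The best site of each miRNA is shown, with both sites of miR8184 that tie, and capitals mark the bases opposite the seed.
FC1, for miR860: auauauaguccaaUCUAUUGa
AT5G23480, for miR781a/b: cuaguauccagaaAACUCUAg
AT1G35660, for miR773a: uucgaccaaaguugGAAGCAAa
ARP7, for miR5640: cacucuaguuccuUCUCUCAu
AT4G18660, for miR8184: gcacauucggaauCAGAUCAa
AT4G20800, for miR8184: augccuucguaauCGGACCAa
All 7 seed bases had a Watson-Crick partner at the first 4 sites, and 6 of 7 did at both sites of miR8184. Over the whole length, the FC1 site had 20 Watson-Crick pairs, 1 G:U pair and 0 unpaired bases, and the AT1G35660 site had 17, 1 and 4.

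The FC1 site of miR860 had an expectation of 0.5 and lies inside MIR860 itself. It covers chr5:9098811-9098831, which is bases 21 to 41 of the hairpin of 126 bp, while mature miR860 is bases 86 to 106. The predicted site is thus the arm to which miR860 pairs in its own precursor, and the same letters are part of the FC1 mRNA. Annotation gives FC1 a transcript of 8 exons that holds the site in its 3′ untranslated region and one of 9 exons that does not. In the 9-exon form, an intron of 73 bp inside the MIR860 span takes the site out and leaves the mature miR860 letters in the last exon. miR860 was the only sequence of the table with a listed FC1 site. Sites that overlap a sequence's own MIR gene, counted on either strand, were listed for 7 of the 75 annotated sequences. Among them were miR408-3p and miR398b/c-3p of conserved families, both at an expectation of 0. Whether these sites lie in the other arm of the precursor, as for miR860, was not determined.

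**Figure D4:**
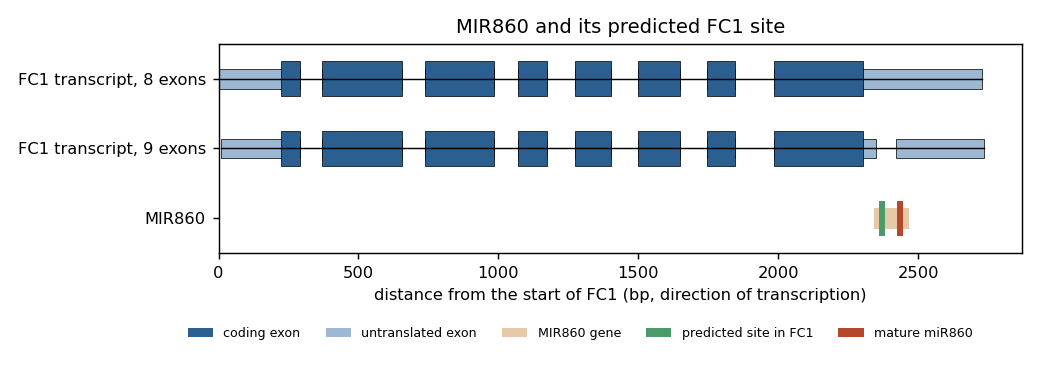
FC1 transcripts of 8 and 9 exons drawn to scale from the start of FC1 (distance in bp), with MIR860 below. The predicted site and mature miR860 are 44 bases apart within MIR860, and the site falls in the last intron of the 9-exon transcript.

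The other leading targets were of varied kinds. For miR781a/b they were AT5G23480, a protein with SWIB/MDM2, Plus-3 and GYF domains (expectation 0.5), MCM2, a subunit of the helicase that opens DNA for replication (1.5), and ABI2, a protein phosphatase of abscisic acid signalling (2). For miR773a they were AT1G35660, an erythroid differentiation factor-like protein (1.5), RFNR1, a ferredoxin reductase of roots (2), and further genes at 2.5, among them FAD2, a fatty acid desaturase. AT1G35660 had 1 further sequence with a site, unannotated and at 4.5, and AT4G18660 had 0. For miR5640 they were ARP7, an actin-related protein of chromatin remodelling complexes (1.5), the RNA-binding protein gene AT1G22330 (2) and FLA7, a fasciclin-like arabinogalactan protein (2). For miR8184 they were AT4G18660, described as a delay of germination protein (2), AT4G20800 of the berberine bridge enzyme family (2) and further genes at 3, among them PUB18, a U-box ubiquitin ligase. After FC1, miR860 had AT1G55210, a dirigent-like protein, and AT3G12640, an RNA-binding protein, both at 2.5.

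Together the 5 miRNAs had sites in 450 genes at an expectation of up to 5, in 271 at up to 4 and in 70 at up to 3. Only AT3G26510 and AT4G18830 had a site for more than 1 of them, in both cases for miR5640 and miR860. miR5640 had 114 genes, miR773a 97, miR781a/b 85, miR8184 83 and miR860 73, and the median over the other 33 sequences outside the conserved list was 87. At an expectation of up to 3 the counts were 24, 20, 13, 8 and 5 in the same order. The place of the sites differed among the miRNAs. For miR773a, 82 of 97 genes had the best site in coding sequence, whereas for miR5640 the 5′ untranslated region was the most frequent place, with 47 of 114 genes, ahead of the 3′ untranslated region with 34 and coding sequence with 32. miR860 sites were in coding sequence in 38 genes and in the 3′ untranslated region in 20.

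Pathways named in connection with these miRNAs were checked gene by gene. Of 27 genes of haem and chlorophyll synthesis, 1 had a site, FC1, by which miR860 was chosen. Of 21 genes of DNA methylation, 1 had a site, DMT2 (AT4G14140), also called MET2, for miR773a at an expectation of 3; MET2 is the target for which miR773 is known. Of 18 genes of small RNA production and action, 1 had a site, DCL1, for miR860 at an expectation of 4. Of 18 genes of ethylene signalling, 0 had a site for any of the 5. The share of all genes with a site was not determined. Nothing is therefore read from counts of 0 or 1 in lists this short.

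**Figure D5:**
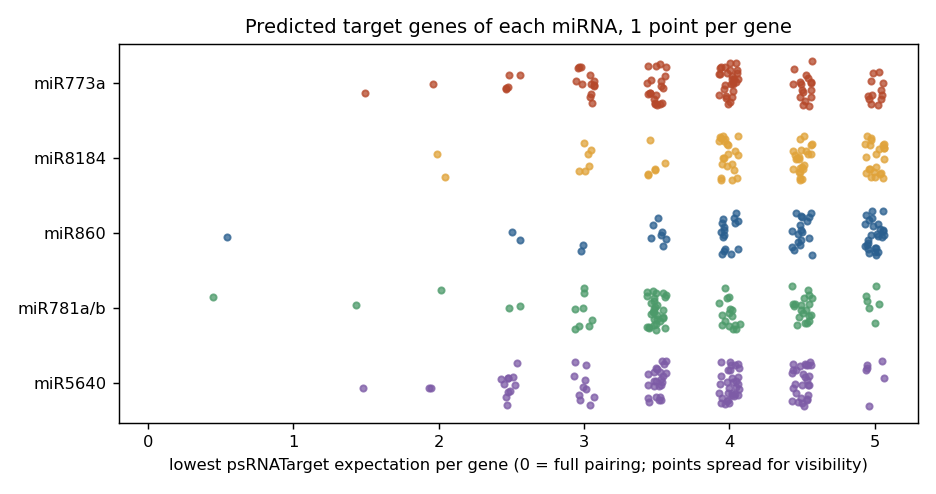
Lowest psRNATarget expectation of each predicted target gene (1 point per gene, spread for visibility) for the 5 miRNAs. miR860 and miR781a/b each have a single gene at 0.5, and most genes of every miRNA lie at 3 or above.

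In the authors' deposited table, the log2 fold changes (ein2-1 over Col-0) were -2.92 for miR8184, -2.90 for miR860, -2.77 for miR773a, -1.31 for miR781a/b and -1.18 for miR5640. A deposited list of 46 entries with log2 fold changes of at least 1.06 in size holds 4 of the 5 and not miR860, although its fall was the second largest of the 5 in the authors' deposited table. The authors' deposited table names miR781 in that list and gives miR773a, miR8184 and miR5640 as unknown, and the names used here come from the match to annotated MIR genes.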

How the data were processed

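Small RNAs of 3 ein2-1 and 3 Col-0 libraries were analysed from tables the authors deposited. Per the submitters' processing notes, cutadapt was used and the build was TAIR10; the aligner and the tool that counted reads are not stated in them or elsewhere in the labels. The authors deposited raw counts per entry, a normalised score per library rounded to whole numbers, and, per the file headers, log2 fold changes, log2 CPM, a likelihood ratio score and p-values with FDR. Predicted targets are those the authors deposited, 23944 pairs of entry and site with an expectation score from psRNATarget; 7 further lines were empty and not used here.

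The 178 entries were placed on the TAIR10.1 reference (RefSeq) by exact match; target sites were placed through the transcript models, and of 18241 sites 18220 had a model, in each of which the deposited letters equalled the genome's, and 21 had none. The test was edgeR's quasi-likelihood test on counts (edgeR 4.0.16, R 4.3.3, TMM, filterByExpr, two-sided, Benjamini-Hochberg adjusted p below 0.05, genotype as the only term). The filter kept 153 entries with 118 distinct sequences. On simulated data of 120 sequences with 40 changed, changes of 2-fold were found in 82.4% of cases and those of 4-fold in 99.7%, with 3.32% false calls. The simulation gave every sequence the same spread between libraries (dispersion), equal numbers of rises and falls, and held each sequence once. In the deposited counts, some sequences are held by several entries. The pooled SD within a genotype ran from 0.035 to 0.986 on the log2 scale over tested sequences other than the members. Whether these rates hold for the deposited counts, with 38 of 118 sequences called lower and 41 higher, was not tested. Log2 CPM for profiles used a prior count of 2.

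The counts listed summed to 1163907, 1882664 and 1430472 in ein2-1 and 940058, 559411 and 569132 in Col-0; with each distinct sequence once they were 606476 to 987089 in ein2-1 and 333025 to 556692 in Col-0. These are totals of the table, not sequencing depth. Reads carry no molecular identifiers, so intervals cover counting error only. Hairpins were folded with RNAfold 2.7.2 and searched with BLAST 2.17.0. Figures used matplotlib 3.10.9.

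Alternatives were DESeq2 1.42.0, limma-voom 3.58.1, scaling by RLE or by library size, no filter, at least 10 counts in 3 libraries, 1 entry per distinct sequence, leaving out the most abundant sequence, a replicate block, an adjusted p of 0.01, an added 2-fold limit, each library left out, and lower limits on expectation. The members, the family list and the gene lists were chosen with earlier results of these data known. Named are all members, genes used to choose them, the 3 lowest expectations per member (up to 6 genes), listed pathway genes with a site, and the 3 most alike sequences; other sequences outside the conserved list with like fold changes, and miR5998a/b, were named after their values were seen.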

Additional observations from a re-analysis of the deposited data

How the results depend on the processing

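All 5 miRNAs stayed lower in ein2-1, and were called lower, under each of the 15 alternative fits. They were chosen as lower in these same libraries, so these calls carry no test. In the main fit, 32.2% of all 118 distinct sequences were called lower. Log2 fold changes ran from -3.77 to -2.64 for miR8184, -3.74 to -2.63 for miR860, -3.62 to -2.49 for miR773a, -2.17 to -1.04 for miR781a/b and -2.04 to -0.89 for miR5640, and miR8184 and miR860 changed places as the lowest between fits; the ends were library-size scaling and leaving out the most abundant sequence, under which single sequences moved by a median of -0.69 and 0.43. Without each library in turn, members called lower stayed at 5, which carries no test either. Entries called lower ran from 50 to 53 and higher from 52 to 67, against 54 and 57 of 153 in the main fit. Sequences outside the conserved list called lower ran from 17 to 18 and higher from 6 to 9. Those of conserved families ran from 12 to 12 and from 14 to 18.

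The authors' entries gave 57 higher and 54 lower calls; library-size scaling gave 32 and 75, and 1 entry per distinct sequence gave 25 and 38 over fewer entries. Conserved sequences called higher were 8 under both, against 15. Sequences outside the conserved list called higher were 11 with no filter and 13 without the most abundant sequence, against 7. Predicted targets followed the limit by construction, with 271 genes and 496 pairs at an expectation of up to 4, and 70 genes and 127 pairs at up to 3. Target limits 0.5 higher added 0 members.

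Replicate numbers were not taken as pairs, as the labels name no pairing. Deviations of libraries with the same number correlated at 0.207, -0.046 and 0.175, and 4 of 6 libraries correlated best with their own number. With so few libraries, these values do not settle whether the replicates were paired. The replicate block gave 58 higher and 52 lower entries and changed no call of the 5. Low counts limit miR860 most, with 3 to 11 counts per ein2-1 library.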
